A study of Piaractus mesopotamicus and Piaractus mesopotamicus x Colossoma macropomum and Colossoma macropomum with 15 samples.

Results

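miR-124, miR-128 and miR-129 are microRNAs (miRNAs) best known from the nervous system, and here their counts were followed in fast (white) skeletal muscle, the fibers of rapid swimming. All copies and arms whose zebrafish (Danio rerio) names begin with miR-124, miR-128 or miR-129 were taken, which gave 28 of the 595 loci counted and 11 of the 369 mature names. The rule goes by name and uses no measured value, but it was chosen with earlier results of these data known. The libraries came from 15 untreated early juvenile fish, 1 library per fish: 5 pacu (PC, Piaractus mesopotamicus), 5 tambaqui (TQ, Colossoma macropomum) and 5 tambacu (TC), the hybrid of a tambaqui female and a pacu male. The sex of the fish is not given, and the reverse cross was not studied, so the hybrid state and the direction of the cross cannot be told apart.

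A miRNA is cut from a hairpin precursor, which yields one strand from its 5′ side (5p) and one from its 3′ side (3p). The strand that is kept guides repression of messenger RNAs that pair with its seed, bases 2 to 8. miR-124 is a hallmark of neurons in vertebrates, where the 3p strand is the kept one and silences transcripts of other cell types. miR-129 is also known from brain, and miR-128 from brain and from skeletal muscle. Muscle biopsies hold motor axons and nerve endings beside the fibers. In such bulk samples, fewer cells of a type and less RNA per cell cannot be told apart.

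The reads were counted on zebrafish sequences, because that reference was used for all 3 genotypes, so a difference in level and a difference in the match to zebrafish cannot be told apart. The mature sequences with counts that the comparisons turn on, and the 3p strand of miR-124 that neurons keep, are shown from the study's reference with T in place of U and the seed in capitals.
dre-miR-128-3p: tCACAGTGaaccggtctctttt
dre-miR-129-5p: cTTTTTGCggtctgggcttgct
dre-miR-124-5p: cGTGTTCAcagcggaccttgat
dre-miR-124-3p: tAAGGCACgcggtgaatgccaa
The miR-128-3p and miR-124-3p seeds were held by no other mature sequence of the reference used here. The miR-129-5p seed was also that of miR-722. The miR-124-5p seed was shared by miR-124-4-5p and miR-124-6-5p, which come from other miR-124 hairpins and are shown because they tell those hairpins apart.
dre-miR-124-4-5p: tGTGTTCAcagtggaccttgat
dre-miR-124-6-5p: cGTGTTCAcggcggaccttgat
Counted from 1 at the 5′ end, miR-124-4-5p differs from miR-124-5p by C1T and C12T, and miR-124-6-5p by A10G.

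For each family a hairpin with the highest counts is shown whole, with both mature strands in capitals, because the counts lay almost entirely on 1 of its sides. For miR-129 it is the hairpin of the first of 4 copies with identical counts.
dre-mir-128-1: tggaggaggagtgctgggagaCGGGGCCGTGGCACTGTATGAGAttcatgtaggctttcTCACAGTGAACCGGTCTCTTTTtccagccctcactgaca
dre-mir-129-1: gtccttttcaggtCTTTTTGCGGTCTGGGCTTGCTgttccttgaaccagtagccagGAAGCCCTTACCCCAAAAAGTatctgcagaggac
dre-mir-124-2: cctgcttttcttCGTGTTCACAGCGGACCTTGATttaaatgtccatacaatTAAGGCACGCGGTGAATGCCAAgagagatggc
On the 98-base hairpin dre-mir-128-1, miR-128-3p lies at bases 60 to 81. On the 90-base dre-mir-129-1, miR-129-5p lies at bases 14 to 35. On the 83-base dre-mir-124-2, miR-124-5p lies at bases 13 to 34 and miR-124-3p at bases 52 to 73.

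The total count per fish was 2422820 to 5669084, with a median of 4769153 in PC, 4763971 in TC and 2858311 in TQ. At these depths 0 counts in 1 fish leave room for a level of 0.463 to 1.33 CPM across the libraries (3 counts, counting error only). CPM is the count in each 1000000 of the library size after TMM scaling, whose factors ranged from 0.621 to 1.43. The muscle label was checked against the miRNAs of striated muscle. miR-1 stood at 752 CPM over the 15 fish, miR-499-5p at 402 CPM and miR-206-3p at 171 CPM, whereas miR-133a-3p and miR-133b-3p, also classical muscle miRNAs, had 0 counts in all fish. A count of 0 in these data thus does not by itself show that a miRNA or strand is missing from the muscle. The summed level of the striated muscle list was 1178 to 1566 CPM in PC, 1551 to 2072 CPM in TC and 751 to 1127 CPM in TQ. Every TQ fish was below every PC and TC fish in this sum. How many other names set TQ apart in this way was not counted. The names of the list did not all go this way. The mean of miR-499-5p was 477 CPM in PC, 572 CPM in TC and 157 CPM in TQ. miR-1 overlapped, at 618 to 881 CPM in PC, 634 to 1114 CPM in TC and 465 to 676 CPM in TQ. miR-133b-5p and miR-133c-5p had their highest means in TQ (2.52 and 4.27 CPM). The part of this sum in the values that follow was not tested.

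Of the 28 loci, 18 had counts and 10 had 0 counts in every fish. The counts fell on 7 of the 11 mature names, and 3 of these names carried nearly all of them. A locus was tested between genotypes when its mean normalized count was at least 10, which 8 of the 28 loci reached: 3 copies of miR-128-3p, 4 copies of miR-129-5p and the first copy of miR-124-5p. The copies of a name are places of its mature sequence on different hairpins, so they can share reads and were not taken as independent. How much they shared differed between names. The other 10 loci with counts lay under this limit and were described only.

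**Figure D1:**
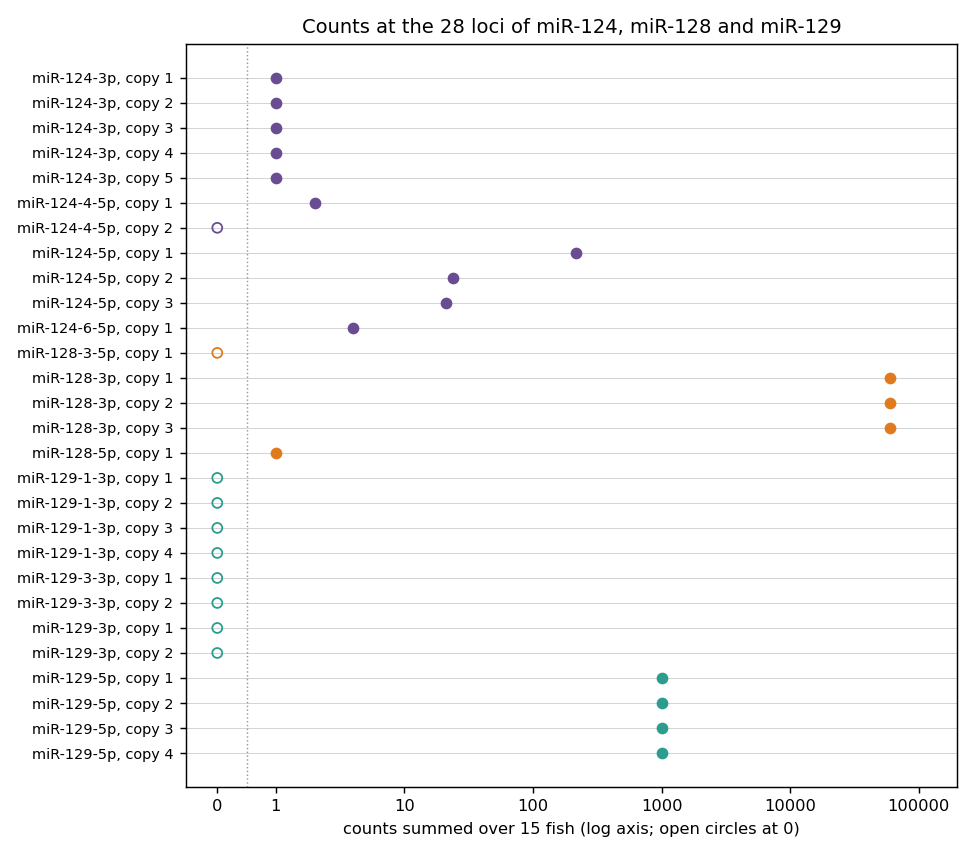
Counts at each of the 28 loci summed over the 15 fish, on a log axis with loci at 0 as open circles on the left. The copies of miR-128-3p lie at 59281 to 60292, the copies of miR-129-5p at 1004, the first copy of miR-124-5p at 216, and the 5 copies of miR-124-3p at 1 each.

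The 3 miRNAs formed a steep order of CPM that held in every fish. miR-128-3p was the 38th of the 214 mature names with counts, at 976 ± 161 CPM (SD, n = 15), and its rank in single fish was 30 to 44. miR-129-5p was the 119th at 17.6 ± 8.82 CPM (ranks 99 to 131), and miR-124-5p was the 147th at 3.61 ± 1.90 CPM (ranks 132 to 153). The 3 mature sequences are 22 bases long. How evenly the library preparation and the match to zebrafish capture different sequences was not tested, so the order is one of reads and not of molecules. Within a fish, miR-128-3p was 16.7 to 153 times as high as miR-129-5p (median 68.5), and miR-129-5p was 1.76 to 19.6 times as high as miR-124-5p (median 4.50). The lowest miR-129-5p value of any fish, 8.78 CPM, was above the highest miR-124-5p value, 7.36 CPM.

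In the order of all names, miR-128-3p stood between miR-365 (1011 ± 190 CPM) and miR-16c-5p (892 ± 311 CPM). miR-129-5p stood between miR-24b-5p (19.0 ± 3.96 CPM) and miR-216a (16.0 ± 8.43 CPM), and miR-124-5p between miR-7132-5p (3.63 ± 1.56 CPM) and miR-133c-5p (3.04 ± 1.30 CPM; SD, n = 15). None of these neighbours differed from the member beside it by more than the spread between fish.

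miR-128-3p, the member known also from muscle, was abundant, and its levels overlapped between genotypes. Its first copy was at 883, 1063, 1233, 853 and 1035 CPM in PC replicates 3, 4, 5, 8 and 10. It was at 856, 1000, 925, 874 and 727 CPM in TC replicates 3, 4, 5, 6 and 8. It was at 976, 1114, 857, 905 and 1345 CPM in TQ replicates 1, 2, 3, 6 and 8. All 3 genotypes overlapped, with the lowest value in TC replicate 8 and the highest in TQ replicate 8.

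The means were 1013 ± 153 CPM in PC, 877 ± 100 CPM in TC and 1039 ± 196 CPM in TQ (SD, n = 5 each). The spread between fish was 15.1% of the mean in PC, 11.4% in TC and 18.9% in TQ, against about 1.6% to 1.8% from counting alone. miR-128-3p was the steadiest of the tested members, with a biological coefficient of variation of 0.182 against 0.247 for loci of similar abundance in the edgeR fit.

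Both differences that involve TC had the same sign, with TC lower, and neither passed the test. In the fit over all 199 loci tested (quasi-likelihood test of edgeR, Benjamini-Hochberg adjustment over the 199 loci), the log2 fold change (log2FC) was −0.21 ± 0.14 (SE) for TC vs. PC (adjusted p = 0.446) and −0.25 ± 0.14 against TQ (adjusted p = 0.215). For PC vs. TQ it was −0.04 ± 0.14 (adjusted p = 0.878), and for TC against the mean of both parents −0.23 ± 0.13 (adjusted p = 0.213). The 95% intervals were −0.51 to 0.10, −0.55 to 0.06, −0.34 to 0.27 and −0.49 to 0.04. All 4 lie within 0.75 in either direction, the limit of a call, under TMM scaling. DESeq2 size factors in edgeR gave log2FC values near these, with TC at −0.26 ± 0.15 (SE) against PC and −0.24 ± 0.15 against TQ. The parents then differed by 0.02 ± 0.15, and TC was at −0.25 ± 0.13 against their mean. With total counts as library sizes the log2FC was larger, −0.66 ± 0.28 (SE) for TC vs. TQ (adjusted p = 0.0932). It was then −0.40 ± 0.28 against PC and −0.53 ± 0.25 against the parents. Scaled to the reads that passed the size limits it was −0.37 ± 0.37 against PC. The bound of 0.75 given for TMM thus did not carry over to these last library sizes. Without TQ replicate 8 the value for TC vs. TQ was −0.099, and without PC replicates 4 or 5 that against PC was −0.12 or −0.090. The value against the parents was −0.13 without TQ replicate 8. Exact permutation tests of the levels (two-sided, over all arrangements of 5 fish against 5) gave p = 0.143 for TC vs. PC, p = 0.143 against TQ and p = 0.817 between the parents.

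**Figure D2:**
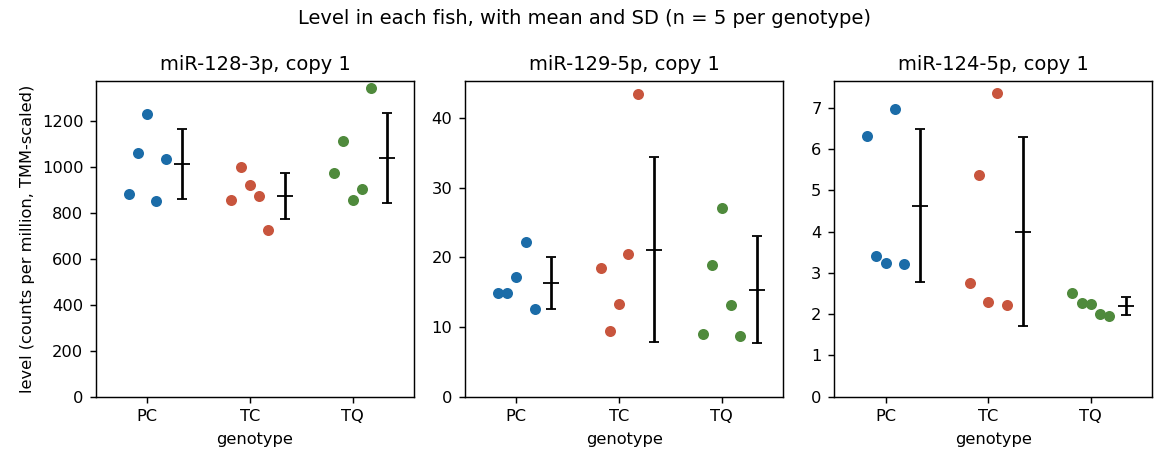
Level of miR-128-3p, miR-129-5p and miR-124-5p (first copy of each, CPM on a linear axis from 0) in each fish by genotype. Points are fish, and the bar beside them is the mean with SD (n = 5). For miR-124-5p the 5 PC fish (3.22 to 6.96 CPM) lie above the 5 TQ fish (1.95 to 2.50 CPM) with TMM scaling, and for miR-129-5p TC replicate 8 stands highest at 43.5 CPM. How many other loci set PC and TQ apart in this way was not counted.

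The copies of miR-128-3p showed how its counts arose. Over the 15 fish, 60292 counts lay on copy 1, 59281 on copy 2 and 59282 on copy 3. Nearly every count was thus entered at all 3 copies, and only a small excess belonged to copy 1. Copies 1 and 2 have the same mature sequence on hairpins with different flanks, shown with the mature sequence in capitals.
dre-miR-128-3p copy 1, on dre-mir-128-1: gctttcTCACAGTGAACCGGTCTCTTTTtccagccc
dre-miR-128-3p copy 2, on dre-mir-128-2: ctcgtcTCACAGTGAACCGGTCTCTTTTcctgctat
The hairpin of copy 3 was not used here.

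The excess of copy 1 over copy 2, as a percent of the counts at copy 1, was small in all fish. It was 1.31%, 1.002%, 1.73%, 2.04% and 1.52% in PC replicates 3, 4, 5, 8 and 10. It was 1.58%, 1.33%, 1.44%, 1.11% and 1.83% in TC replicates 3, 4, 5, 6 and 8. It was 1.503%, 1.81%, 3.42%, 2.87% and 2.05% in TQ replicates 1, 2, 3, 6 and 8. The values of all genotypes overlapped, and the highest 3 belonged to TQ.

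The mean excess was 2.33% ± 0.793 in TQ, 1.52% ± 0.396 in PC and 1.46% ± 0.269 in TC (SD, n = 5 each). Before adjustment, TC and TQ differed by the exact permutation test (two-sided, p = 0.0397), and PC and TQ (p = 0.0794) and TC and PC (p = 0.786) did not pass. Adjusted over these 3 comparisons the p-values were 0.119, 0.119 and 0.786, so no difference held. The unadjusted p for TC vs. TQ was 0.103 without TC replicate 6, and it was also above 0.05 (0.0556 to 0.0952) without TC replicate 3, 4 or 5 or TQ replicate 3 or 6.

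**Figure D3:**
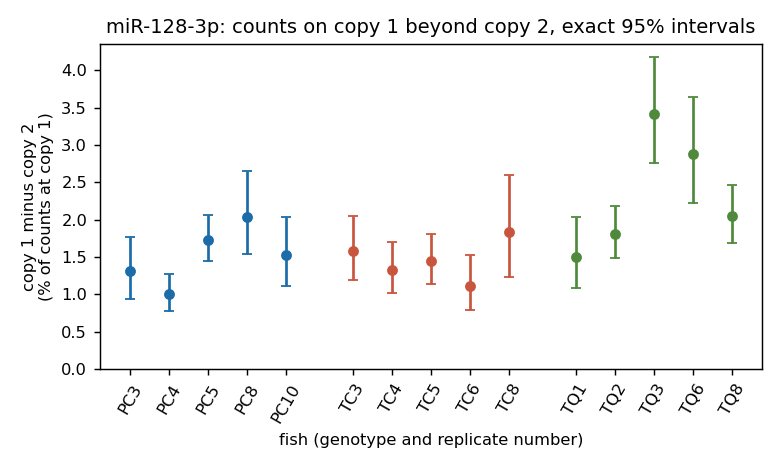
Counts of miR-128-3p on copy 1 beyond those on copy 2, as a percent of the counts on copy 1, in each of the 15 fish, with exact binomial (Clopper-Pearson) 95% intervals that cover counting error only. TQ replicates 3 and 6 stand highest at 3.42% and 2.87%, and PC replicate 4 lowest at 1.002%.

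The other strand of miR-128 was almost without counts, which does not show that it is missing from the muscle. miR-128-5p had 1 count in the 15 fish, in TQ replicate 2, against 60292 on the 3p strand of the same hairpin, and the 5p strand of a further hairpin, miR-128-3-5p, had 0.

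miR-129-5p, a brain miRNA, was present at a low level in every fish. Its first copy was at 14.8, 14.8, 17.2, 22.2 and 12.5 CPM in PC replicates 3, 4, 5, 8 and 10. It was at 18.5, 9.44, 13.4, 20.5 and 43.5 CPM in TC replicates 3, 4, 5, 6 and 8. It was at 8.94, 18.9, 27.1, 13.2 and 8.78 CPM in TQ replicates 1, 2, 3, 6 and 8. The genotypes overlapped, and TC replicate 8 was higher than every other fish. That fish also had the lowest total count of all, 2422820, and the lowest miR-128-3p.

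The means were 16.3 ± 3.67 CPM in PC, 21.1 ± 13.3 CPM in TC and 15.4 ± 7.72 CPM in TQ (SD, n = 5 each). The spread between fish was 22.5% of the mean in PC, 63.0% in TC and 50.2% in TQ, and counting alone would give 12.8%, 12.0% and 15.5%. Its biological coefficient of variation of 0.404 was above that of loci of similar abundance, 0.316. Behind these levels stood 25 to 101 counts per fish. The 4 copies had identical counts in all 15 fish, 1004 in total, so they are one measurement.

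No difference in miR-129-5p between genotypes passed the test. In the edgeR fit the log2FC was 0.34 ± 0.38 (SE) for TC vs. PC (adjusted p = 0.727), 0.42 ± 0.38 against TQ (adjusted p = 0.425), 0.08 ± 0.38 for PC vs. TQ (adjusted p = 0.878) and 0.38 ± 0.33 for TC against the mean of the parents (adjusted p = 0.425). The 95% intervals reached from −0.46 to 1.14, −0.39 to 1.23, −0.73 to 0.89 and −0.31 to 1.07, so these data do not exclude a change past 0.75. Exact permutation tests (two-sided) gave p = 0.619, p = 0.476 and p = 0.833 for the 3 contrasts between genotypes. Without TC replicate 8 the log2FC was −0.092 against PC, −0.0029 against TQ and −0.047 against the parents, so the higher mean in TC rested on that fish.

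The 3p strands of miR-129 had 0 counts at all 8 loci that carry them (miR-129-1-3p, miR-129-3p and miR-129-3-3p). On dre-mir-129-1 this was 0 of 1004 counts on both strands, which allows a share of up to 0.299% of the counts (counting error only). On dre-mir-129-2 the second copy of miR-129-1-3p and the first copy of miR-129-3p overlap each other, and the part of this overlap in their 0 counts was not tested.

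miR-124-5p, the lesser strand of the neuronal miR-124, was the rarest member that was tested. Its tested values are those of copy 1, and most of these counts were not entered at the other copies of the same mature sequence. Its first copy was at 6.32, 3.40, 3.24, 6.96 and 3.22 CPM in PC replicates 3, 4, 5, 8 and 10, from 9 to 23 counts. It was at 2.75, 5.36, 2.28, 7.36 and 2.22 CPM in TC replicates 3, 4, 5, 6 and 8, from 5 to 28 counts. It was at 2.50, 2.26, 2.25, 2.0 and 1.95 CPM in TQ replicates 1, 2, 3, 6 and 8, from 5 to 12 counts. All 5 PC fish were above all 5 TQ fish on this scale, and TC spanned both, with replicates 4 and 6 above most PC fish and replicates 5 and 8 within the TQ range. PC and TQ were also apart with DESeq2 size factors and with total counts, but overlapped when scaled to the reads that passed the size limits (exact permutation test, two-sided, p = 0.0159). How many of the 199 loci tested set PC and TQ apart in this way was not counted. At an unadjusted p under 0.05 (edgeR), 34.7% of them differed in this contrast.

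The means were 4.63 ± 1.85 CPM in PC, 3.996 ± 2.28 CPM in TC and 2.20 ± 0.224 CPM in TQ (SD, n = 5 each), a ratio of 2.11 for PC to TQ and 1.82 for TC to TQ. The spread between the TQ fish was 10.2% of their mean, less than the 37.3% that counting alone would give at these depths. The spread was 40.0% in PC and 57.1% in TC, against 24.4% and 29.8% from counting.

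The edgeR fit did not call this difference. The log2FC of PC vs. TQ was 1.04 ± 0.38 (SE; 95% interval 0.25 to 1.84), past the limit of 0.75, with an adjusted p of 0.0684. For TC vs. TQ it was 0.87 ± 0.38 (0.07 to 1.67, adjusted p = 0.103), for TC vs. PC −0.17 ± 0.35 (−0.90 to 0.56, adjusted p = 0.811) and against the mean of the parents 0.35 ± 0.31 (−0.30 to 1.004, adjusted p = 0.434). Without TC replicate 6 the value for TC vs. TQ was 0.55 and that against the parents 0.028, and with total counts as library sizes they were 0.47 and 0.11. The exact permutation test of the levels (two-sided) gave p = 0.00794 for PC vs. TQ, the smallest p that 5 fish against 5 allow, p = 0.0714 for TC vs. TQ and p = 0.603 for TC vs. PC. These belong to 9 such tests, 3 for each of the 3 miRNAs, and are not adjusted.

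The PC vs. TQ value lay close to the limit of a call. DESeq2 as run here, in place of edgeR, called it (log2FC 1.12, adjusted p = 0.0429). With the log2FC prior of that tool it was also called (0.85, adjusted p = 0.0428). The study's own PC vs. TQ list, made with DESeq2 at the same limits of a call, does not name miR-124-5p. It was also called with PC and TQ alone in the edgeR fit (1.04, adjusted p = 0.0354), and with one copy kept per mature name (1.11, adjusted p = 0.0450). Over the 11 alternatives to the edgeR setting the adjusted p ranged from 0.0354 to 0.329, and 5 of the 11 made the call.

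**Figure D4:**
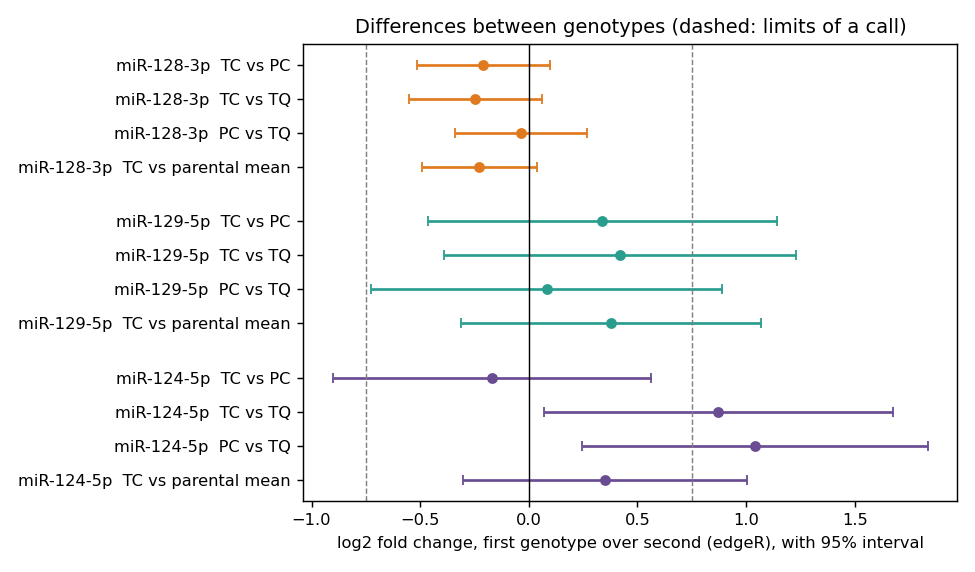
Log2FC of the first named genotype over the second for miR-128-3p, miR-129-5p and miR-124-5p, with 95% intervals from the edgeR fit. Dashed lines mark 0.75 in either direction. With this TMM-scaled fit the 4 miR-128-3p intervals lie between the dashed lines, and the miR-124-5p intervals of TC vs. TQ and PC vs. TQ lie above 0.

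Counted over the members, 0 of the 8 loci tested were called in any contrast by edgeR. Among all 199 loci tested, 3.52% were called for TC vs. PC, 14.6% for TC against TQ, 10.6% between the parents and 3.02% for TC against their mean. At an unadjusted p under 0.05, 0 member loci passed for TC vs. PC and against the mean of the parents, where 29.1% and 30.2% of all loci did. The locus of miR-124-5p passed for TC vs. TQ (36.7% of all loci) and between the parents (34.7%). The 8 loci hold only 3 separate mature sequences, too few for a share to be read against this background. The median log2FC over all loci tested was 0.02, 0.03 and 0.00 in the 3 contrasts between genotypes.

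The copies of miR-124-5p behaved unlike those of miR-128-3p. Copy 1 had 216 counts in the 15 fish, copy 2 had 24 and copy 3 had 21. Of the counts at copy 1, 192 of 216 were not matched at copy 2 (88.9%, exact 95% interval 83.9% to 92.7%), although the mature sequence of the copies is the same. Copy 2 had 9 counts in PC, 11 in TC and 4 in TQ. The level of miR-124-5p and its PC vs. TQ difference thus rest mostly on counts without a match at copy 2. Nearly every miR-128-3p count was entered at all its copies. If miR-124-5p reads were treated alike, plain mature reads would count at copies 2 and 3 too. The unmatched counts would then come from reads that fit copy 1 better than the others. The levels given for miR-124-5p would then mostly not measure the plain mature strand. The sequences of the reads were not examined, and this was not tested. The flanks are shown because the mature sequence itself is the same in the 3 copies. The bases just after it, ttaa, are also the same in all 3, and the bases before it differ. A read of at most 26 bases that starts at base 1 of the mature sequence thus fits all 3 copies alike. Bases further out are not shown.
dre-miR-124-5p copy 1, on dre-mir-124-2: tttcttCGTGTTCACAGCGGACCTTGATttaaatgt
dre-miR-124-5p copy 2, on dre-mir-124-3: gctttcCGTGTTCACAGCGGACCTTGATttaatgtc
dre-miR-124-5p copy 3, on dre-mir-124-5: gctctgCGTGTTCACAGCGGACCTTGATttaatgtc
Copy 2 had counts in 10 of the 15 fish, 5 at most in one of them, and in TC replicate 4 all 5 of its counts had a match at copy 3. The 5p strands of other miR-124 hairpins were rarer still: miR-124-6-5p had 4 counts, 2 in PC replicate 8 and 2 in TQ replicate 6, and the first copy of miR-124-4-5p had 2, in TQ replicates 1 and 2.

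miR-124-3p, the strand that neurons keep, was almost without counts. Each of its 5 copies had 1 count in the 15 fish: copy 1 in TQ replicate 2, and copies 2 to 5 in TC replicate 6. On dre-mir-124-2, which carries both strands, the place of the 3p strand held 1 of 217 counts and the place of the 5p strand the rest. The 3p share was 0.461% (exact 95% interval 0.0117% to 2.54%, counting error only). Most counts at the 5p place had no match at copy 2, so this may not be a share of plain mature strands.

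The miR-124-3p sequence is held by 6 of the 346 precursors of the reference used here, against 3 for miR-124-5p. Of the 16 mature names held by 6 or more precursors, 13 belonged to miR-430, a family of the early embryo, and had 0 counts. The others were miR-124-3p, miR-9-5p, a neural miRNA with at most 1 count at any copy, and let-7a, a widely expressed miRNA with 0 counts at 3 of its 5 loci and 2153 at the highest. Just under this cut the counts went both ways. With 5 precursors each, miR-24 had 0 counts at all 5 loci and miR-9-3p had 762 at its highest copy. miR-23a-3p, with 4 precursors, had 0 at all 5 loci. For some names the reference used here holds fewer precursors than loci were counted, as for miR-129-5p with 2 precursors and 4 loci. The precursor numbers can thus be too low. How reads that fit many precursors were treated is not given in the sources used here, and its part in the low count of miR-124-3p was not tested.

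The members were set beside a list of 11 other miRNA families known from neurons and glia. Of its 33 names, 17 had counts and 7 were tested at 16 loci. Its summed level was 117 to 190 CPM in PC, 127 to 178 CPM in TC and 88.3 to 161 CPM in TQ, so the genotypes overlapped. For PC vs. TQ, 3 of the 16 loci were called, all higher in PC (5.53% of all loci tested were), with a median log2FC of 0.18 over the list and 0.00 over all loci. Copies can share reads, and the 3 loci are 2 of the 7 names tested, too few to be read against that share. The loci called were the third copy of miR-7a, a miRNA of neuroendocrine cells, with 2 to 10 counts per TQ fish, and both copies tested of miR-132-3p, an activity-dependent miRNA of neurons. This copy of miR-7a had a log2FC of 1.91 (adjusted p = 0.0379), while its first and second copies, with identical values, were at 0.23 (adjusted p = 0.764), and miR-132-3p of 1.62 (adjusted p = 0.00494).

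For TC vs. TQ, 1 locus of the list was called higher, where 8.04% of all loci were, the third copy of miR-7a (log2FC 1.69, adjusted p = 0.0428). Its first and second copies were at −0.37 (adjusted p = 0.586), and the 2 copies tested of miR-138-5p, a brain-enriched miRNA, at −0.68 and −0.72 (adjusted p = 0.164 and 0.165). For TC vs. PC 0 of 16 were called. miR-212-5p, which comes from the same cluster as miR-132 in vertebrates, had 9.27 ± 4.77 CPM in PC, 8.98 ± 1.64 CPM in TC and 4.83 ± 0.533 CPM in TQ, with adjusted p-values (edgeR) of 0.0675 for PC and 0.0515 for TC against TQ. miR-137-3p, miR-153a-3p and miR-219-5p, found in neurons or oligodendrocytes, had 13, 75 and 2 counts in all 15 fish. Both miR-218 names, known from motor neurons, had 0. These names were not tested, and not all names of the list were higher in PC. miR-153a-3p had 0.571 ± 0.188 CPM in PC, 1.74 ± 0.467 CPM in TC and 1.54 ± 0.500 CPM in TQ (SD, n = 5 each). The mean of miR-137-3p was 0.123 CPM in PC and 0.419 CPM in TQ, and that of miR-135c 0.488 and 0.209 CPM, from few counts.

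The fish with most miR-124-5p was also the fish with most miR-9-3p, a miRNA of neural progenitors and neurons. TC replicate 6 had 7.36 CPM of miR-124-5p and 35.2 CPM of miR-9-3p, and the other 4 TC fish had 4.44 to 9.31 CPM of miR-9-3p. In PC and TQ miR-9-3p ranged from 8.51 to 15.3 CPM, and its Spearman rho with miR-124-5p over the 15 fish was 0.01, and 0.44 was the Pearson r of the log2 deviations from each genotype mean.

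The likeness of patterns was measured as Spearman's rho of the levels over the 15 fish, as a description. These fish fall into 3 genotypes and share the scaling of each library. The members did not move together: rho was −0.63 between miR-128-3p and miR-129-5p, −0.14 between miR-128-3p and miR-124-5p and 0.14 between miR-129-5p and miR-124-5p.

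Among the 199 loci tested, the names nearest to miR-128-3p were miR-20a-3p (rho 0.86), miR-199-3p (0.84) and miR-18c (0.79). The nearest to miR-129-5p were miR-21 (0.75), miR-146b (0.61) and miR-146a (0.60), miRNAs known from inflamed tissue. TC replicate 8, the highest fish for miR-129-5p, was also the highest for miR-21 (25442 CPM) and for miR-146a (12791 CPM). For miR-146b it was not: PC replicate 8 was highest at 1377 CPM, and TC replicate 8 had 745 CPM.

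The names nearest to miR-124-5p were miR-192 (rho 0.78), known from gut, liver and kidney, miR-122 (0.75), the defining miRNA of liver, and miR-22a-3p (0.68). Of the neural list, miR-132-3p had a rho of 0.61 with it, miR-212-5p 0.54 and the third copy of miR-7a 0.53, against 0.11 for miR-7b, 0.03 for miR-338-5p and −0.11 for miR-138-5p. These values include the differences between genotypes. As deviations from the genotype means (Pearson r), miR-132-3p and miR-212-5p were at 0.42, miR-338-5p at 0.33, miR-7b at 0.16, miR-7a at 0.09 and miR-138-5p at −0.33. On this measure miR-192 was at 0.84, miR-122 at 0.53 and miR-22a-3p at 0.51. miR-192 and miR-122 were higher in PC than in TQ, as miR-124-5p was in the fish values: miR-192 had a log2FC of 0.89 (adjusted p = 0.0132) and miR-122 of 1.17 (adjusted p = 0.0275). The level of miR-122 was 10.01 to 19.8 CPM in PC, 7.51 to 22.7 CPM in TC and 3.42 to 9.44 CPM in TQ. Its part in the miR-124-5p difference was not tested.

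Markers of other tissues moved differently between the parents. For PC vs. TQ, 2 of 5 loci of the leukocyte list (miR-142, miR-150 and miR-223) and 2 of 4 of the pancreas list (miR-216, miR-217 and miR-375) were lower in PC, where 5.03% of all loci tested were. These loci are of 4 and 3 names tested, too few to be read against that share. In the pancreas list, miR-216a, miR-216b and miR-217 had lower means in PC than in TQ. miR-375 went the other way, with 13.1 ± 4.78 CPM in PC and 7.81 ± 3.28 CPM in TQ (SD, n = 5 each). The summed leukocyte list was 454 to 701 CPM in PC and 750 to 971 CPM in TQ, and the summed pancreas list 14.9 to 28.6 CPM in PC and 28.8 to 40.8 CPM in TQ. The red cell list (miR-144 and miR-451) had 1 of 2 loci lower in PC, and the lists of epidermis (miR-203 and miR-205) and sensory epithelium (miR-96, miR-182 and miR-183) had 0 of 2 and 0 of 3 called. miR-126, the marker of endothelium, had 0 counts at all 8 loci. The part of these tissues in the member values was not tested.

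**Figure D5:**
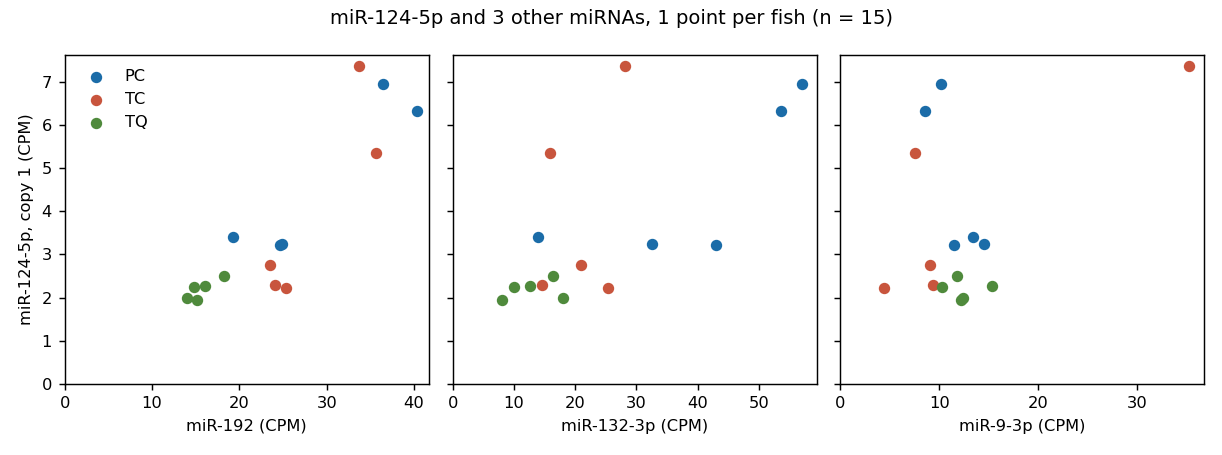
Level of miR-124-5p (CPM, vertical axis) against miR-192, miR-132-3p and miR-9-3p (CPM, horizontal axes), 1 point per fish (n = 15), coloured by genotype. The TQ fish lie at the lower left for miR-192 (14 to 18.2 CPM) and TC replicate 6 stands apart for miR-9-3p at 35.2 CPM.

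miR-722, the only other name with the miR-129-5p seed, was more abundant than miR-129-5p and did not share its pattern. It had 190 ± 27.5 CPM in PC, 145 ± 26.2 CPM in TC and 206 ± 32.4 CPM in TQ (SD, n = 5 each), and rho with miR-129-5p was 0.03. It was lower in TC than in TQ by a log2FC of −0.51 (adjusted p = 0.0292), which is short of the limit of 0.75.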

How the data were processed

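Small RNA of fast muscle was sequenced from 15 fish (5 per genotype, 50 cycles). The authors clipped adapters, dropped reads under 17 and over 26 bases, aligned the rest with Hisat2 to zebrafish precursors of miRBase 22, and used featureCounts to count them where GMAP had placed each mature sequence. Hisat2 was run with standard parameters. Versions of these tools, and the handling by featureCounts of reads with several places, are not stated. The authors deposited these raw counts and a signal, the counts divided by 1 DESeq2 size factor per fish. For the filter of a mean of 10, the fits computed DESeq2 size factors again from the raw counts. The signal served only to list which member loci reached that mean.

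Raw counts were tested with edgeR 4.0.16 (glmQLFit, TMM, all 15 fish in 1 fit, R 4.3.3, limma 3.58.1) over 199 of 595 loci. A call needed an absolute log2FC of at least 0.75 and an adjusted p of at most 0.05. The SE is the log2FC divided by the root of F. Single values were compared by exact permutation tests with Python 3.11.15, numpy 2.4.6, pandas 2.3.3 and scipy 1.17.1, and plotted with matplotlib 3.10.9. DESeq2 1.42.0 was an alternative. Alternatives also changed the scaling, filter, copies, limits, fish and block. The routines were first tested on simulated data. Levels carry a common biological coefficient of variation of 0.279, and intervals of counts cover counting error only. Nothing says that PCR copies were removed. All 30 pairs of fish within a genotype differed beyond counting noise, so no library was repeated, which does not show that the fish are independent. Each fish was taken as 1 replicate because the study gives 5 fish per genotype.

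The named miRNAs were all loci of the 3 families, the loci of the marker lists, the 3 names nearest to each tested member by Spearman's rho of log2(CPM + 1), and any miRNA that a small count needed. miR-722 and the per-fish values of miR-9-3p were chosen after values were seen. The members, lists and tests were chosen with earlier results of these data known. Sequences and places on hairpins came from the study's reference, which gave 19 of the 28 places; the other 9 were not used here.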

Additional observations from a re-analysis of the deposited data

How the results depend on the processing

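miR-128-3p and miR-124-5p kept the direction of their log2FC in both contrasts of TC with TQ and with the mean of the parents under every setting of the fits, and miR-128-3p also against PC. The call for miR-124-5p in PC vs. TQ changed: its log2FC was 1.14 (adjusted p = 0.0496) with no filter on low counts, 1.12 with DESeq2 without its prior, 0.85 with the prior, 1.04 with PC and TQ alone in the fit and 1.11 with one copy per mature name, and all 5 passed. The member loci called then numbered 1 instead of 0 for each of the 5. Leaving out single fish, this log2FC was 0.86 to 1.14 and the member loci called were 0 to 1, and the call appeared once PC replicate 4, PC replicate 5 or the TC fish of number 6 was left out.

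The near-zero log2FC of miR-128-3p in PC vs. TQ turned positive with DESeq2 size factors (0.019; exact p of the levels 0.905), reads after the size filter as library sizes (0.090; p = 0.849), no filter (0.063), DESeq2 without (0.019) and with its prior (0.018) and one copy per name (0.027). That of miR-129-5p turned to −0.16 with total counts as library sizes (exact p of the levels 0.635). With total counts, TC was below TQ in miR-128-3p by the exact test (p = 0.0476). The causes were not tested.

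Over fits that each leave out 1 fish, the log2FC of miR-124-5p ranged from −0.49 to 0.013 in TC vs. PC, 0.55 to 1.04 in TC vs. TQ and 0.028 to 0.51 against the parents. That of miR-128-3p ranged from −0.26 to −0.090, −0.31 to −0.099 and −0.26 to −0.13 in these contrasts, and from −0.13 to 0.067 in PC vs. TQ. For miR-129-5p it ranged from −0.092 to 0.57 against PC, −0.0029 to 0.71 against TQ and −0.047 to 0.60 against the parents in TC, and from −0.080 to 0.38 in PC vs. TQ. The exact p of the levels ranged from 0.540 to 0.952 for miR-128-3p in PC vs. TQ, 0.254 to 0.794 for miR-129-5p in TC vs. PC, 0.238 to 0.960 for miR-129-5p in PC vs. TQ and 0.0159 to 0.238 for miR-124-5p in TC vs. TQ, which passed 0.05 without TC replicate 5 or TC replicate 8. For the first-copy excess of miR-128-3p it ranged from 0.357 to 0.976 in TC vs. PC, 0.0159 to 0.103 in TC vs. TQ, lost without TC replicates 3, 4, 5 or 6 or TQ replicates 3 or 6, and 0.0238 to 0.175 in PC vs. TQ, passed without TQ replicate 1.

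Fish of different genotypes share some replicate numbers, and the sources name no pairing by number. Of 9 same-numbered pairs, 5 had a correlation of deviations over 0.1 (range −0.47 to 0.26), and 2 fish correlated best with their own number. With so few shared numbers this check cannot settle whether the numbers pair the fish, which were treated as unpaired. With the number as a replicate block, miR-124-5p in PC vs. TQ had a log2FC of 1.59 (adjusted p = 0.112), the calls over all loci went from 21 to 9, and 0 member loci were called. Over the settings without left-out fish, the loci called of all tested ranged from 1 to 19 for TC vs. PC (7 in the edgeR fit), 1 to 53 for TC vs. TQ (29), 8 to 30 for PC vs. TQ (21) and 1 to 18 against the parents (6).

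miR-124-5p rests on 5 to 28 counts per fish, and its spread between fish exceeded counting error in PC and TC but not in TQ. For miR-129-5p the spread exceeded counting error in all genotypes, and for miR-128-3p counting error was small beside the spread between fish.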
